A study of Mus musculus with 13 samples.

Results

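The miR-148 and miR-152 family comprised 3 hairpins, mmu-mir-148a, mmu-mir-148b and mmu-mir-152, chosen by name among the 903 hairpins that the 13 small RNA libraries list. Each hairpin had a 5p and a 3p mature miRNA (the strands cut from its left and right arm), which gave 6 of 1514 pairs of hairpin and mature miRNA. The family was taken up because the lower miR-148a-3p of TgR hippocampi was already known, so all values of TgR against FVB/N hippocampi, and all values that include the hippocampal libraries, are given here as a description without a test. The PFC comparison of genotypes uses other libraries, and the members were tested there. For the PFC of TgR mice the paper had already reported no differentially expressed miRNA, so a lack of calls there was known beforehand.

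The libraries came from 3 hippocampi and 3 prefrontal cortices (PFC) of FVB/N mice, labelled WT, and from 3 hippocampi and 4 PFCs of TgR mice, which carry on the FVB/N background a constitutive transgene for human AChE-R, the soluble stress-inducible splice variant of acetylcholinesterase, driven by a minimal promoter and enhancer of cytomegalovirus. The labels name no treatment for any group. They name a numbered animal for each PFC library, but only a numbered hippocampus for each hippocampal library. The published methods give as many mice as libraries for each group, so each hippocampal library was taken as a separate mouse. The age of these mice and whether both regions came from the same animals are not given in the sources used here. TgR mice of high and low stereotypic locomotion were not separated for the RNA work. The transgene is no miRNA, so its level could not be checked in these libraries.

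A miRNA guides a silencing complex to mRNAs that pair with its seed, bases 2 to 8 from its 5′ end, so miRNAs with the same seed can bind overlapping sets of mRNAs. The miR-148 and miR-152 family is best known as a repressor of Dnmt1, the enzyme that maintains DNA methylation, and miR-148a also as a regulator of the LDL receptor and thus of cholesterol uptake. In most hairpins 1 arm gives the abundant guide strand, and the other arm is mostly degraded.

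The 3 guide strands are shown because they share the seed that defines the family (capitals, bases 2 to 8; RefSeq, GRCm38.p6, with all 6 mature sequences of the family matched by name).
miR-148a-3p: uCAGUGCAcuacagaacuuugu
miR-148b-3p: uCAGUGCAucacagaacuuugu
miR-152-3p: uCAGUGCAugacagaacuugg

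No other mature mouse miRNA of the RefSeq table had this seed. Counted from 1 at the 5′ end, miR-148b-3p differed from miR-148a-3p at 2 of 22 bases (C9U and U10C), and miR-152-3p differed from miR-148a-3p at 3 of the 21 bases that both have (C9U, U10G and U20G). All differences lay outside the seed. How the alignment treated a read with a mismatch between such close sequences is not given in the sources used here, which is why the sum of the 3 guide strands is reported below as well.

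The 5p strands were less alike, and miR-152-5p does not share the seed of the other two (capitals again bases 2 to 8).
miR-148a-5p: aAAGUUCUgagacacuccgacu
miR-148b-5p: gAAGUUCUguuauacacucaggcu
miR-152-5p: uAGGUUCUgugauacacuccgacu

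The hairpins lie on different chromosomes of GRCm38. mir-148a (chr6:51269812-51269910, minus strand) lies between genes, 162.8 kb from the nearest protein-coding gene, Nfe2l3. mir-148b (chr15:103285125-103285221, plus strand) lies in an intron of Copz1, and mir-152 (chr11:96850393-96850465, plus strand) in an intron of Copz2, both on the strand of the host gene. Copz1 and Copz2 encode alternative zeta subunits of coatomer, the coat of Golgi transport vesicles. The closest listed miRNAs to mir-148a and mir-148b, miR-196b-5p and miR-196a-5p, averaged under 1 CPM (a read count normalised for library depth) and were not tested.

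Depth was 13077865 to 18385985 counts in hippocampal and 8769851 to 17708258 counts in PFC libraries, where 3 counts, the limit that a count of 0 allows, correspond to 0.163 to 0.342 CPM. Every member was counted in every library, and all 6 passed the filter on low counts. Between 35619 and 139432 counts stood behind each value of miR-148a-3p, but only 43 to 98 behind each value of miR-152-5p. Counting error is a lower limit to the error, since the reads carry no molecular identifiers. No library pair of the same group agreed within counting noise. In bulk tissue, fewer cells of a type and less RNA per cell cannot be told apart.

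miR-148a-3p made up most of the reads of the family. Its mean over the 13 libraries, 5095 CPM, ranked 37th of 751 tested pairs. miR-148b-3p followed at 360 CPM (rank 134) and miR-152-3p at 73.3 CPM (rank 234). The 5p strands lay far lower, at 16.9 CPM for miR-148b-5p, 8.30 CPM for miR-148a-5p and 4.69 CPM for miR-152-5p. These mature miRNAs are 21 to 24 bases long, so their CPM need no correction for length. Whether reads of different members were captured equally was not tested, so the CPM compare reads and not amounts of RNA.

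In the hippocampus, miR-148a-3p was lower in TgR than in FVB/N mice, and it was the member by which the family was chosen. FVB/N replicates 1, 2 and 3 had 5284, 5264 and 11195 CPM, and TgR replicates 1, 2 and 3 had 3257, 2364 and 3103 CPM. All TgR libraries were below all FVB/N libraries, and FVB/N replicate 3 had more than the sum of the other two FVB/N libraries. The mean was 7248 ± 3419 CPM for the FVB/N group and 2908 ± 477 CPM for the TgR group (SD, n = 3 each), and the fitted log2 fold change was -1.30 (standard error 0.28, edgeR). Without FVB/N replicate 3 the log2 fold change was -0.90 (standard error 0.15).

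The other strand of the hairpin, miR-148a-5p, is its rarely kept passenger strand. FVB/N replicates 1, 2 and 3 had 8.64, 10.7 and 9.23 CPM, and TgR replicates 1, 2 and 3 had 6.95, 5.64 and 6.50 CPM. Again the groups did not overlap, with TgR lower, and FVB/N replicate 3 was not the highest of its group. The log2 fold change was -0.58 (standard error 0.17, edgeR), and -0.65 (standard error 0.19) without FVB/N replicate 3. Thus 2 of the 6 members, both strands of mir-148a, had TgR hippocampi entirely below FVB/N hippocampi, and 0 of the 6 had them entirely above. Over all 726 tested pairs, 13.5% lay entirely below and 10.5% entirely above. The count of 2 holds miR-148a-3p, by which the family was chosen, and the other strand of the same hairpin, so it is a description only.

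**Figure D1:**
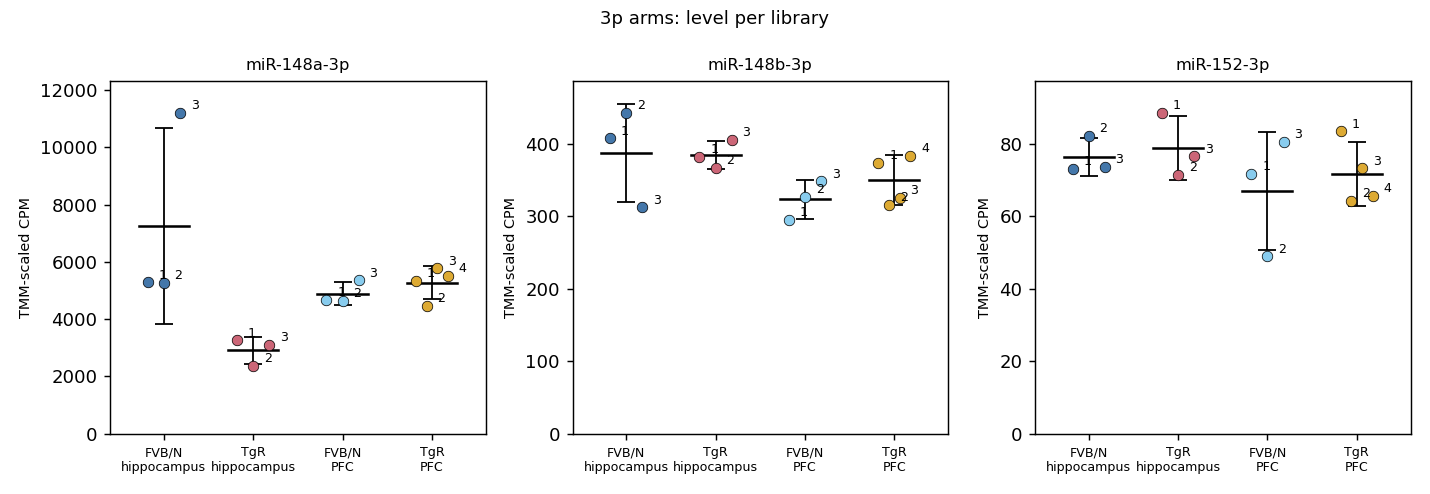
Level of each 3p strand (TMM-scaled CPM, linear axis from 0) in every library of the 4 groups; points are libraries numbered by replicate, lines the means and bars the SD (n = 3, or 4 in TgR PFC). The TgR hippocampi sit lowest for miR-148a-3p, at 2364 to 3257 CPM, and FVB/N hippocampus replicate 3 highest, at 11195 CPM, while the groups overlap for miR-148b-3p and miR-152-3p.

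The members made from the Copz introns differed little between the genotypes in the hippocampus. miR-148b-3p had 408, 442 and 312 CPM in FVB/N replicates 1, 2 and 3 and 382, 367 and 405 CPM in TgR replicates 1, 2 and 3. The TgR values lay inside the FVB/N range, and FVB/N replicate 3, the highest library for miR-148a-3p, was the lowest of the 6 here. The log2 fold change of miR-148b-3p was -0.0076 (standard error 0.17), and that of miR-148b-5p was -0.056 (standard error 0.15). miR-152-3p had 73.1, 82.3 and 73.6 CPM in FVB/N replicates 1, 2 and 3 and 88.5, 71.5 and 76.5 CPM in TgR replicates 1, 2 and 3, so that the log2 fold change was 0.052 (standard error 0.16). miR-152-5p, at 3.69 to 5.04 CPM (FVB/N) and 4.70 to 5.84 CPM (TgR), had the only log2 fold change above 0.1 (0.28, standard error 0.18), and its groups overlapped. The signs for miR-148b-3p and miR-152-3p changed when single mice were left out (to 0.075 for miR-148b-3p without FVB/N replicate 2, and to -0.084 for miR-152-3p without TgR replicate 1).

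**Figure D2:**
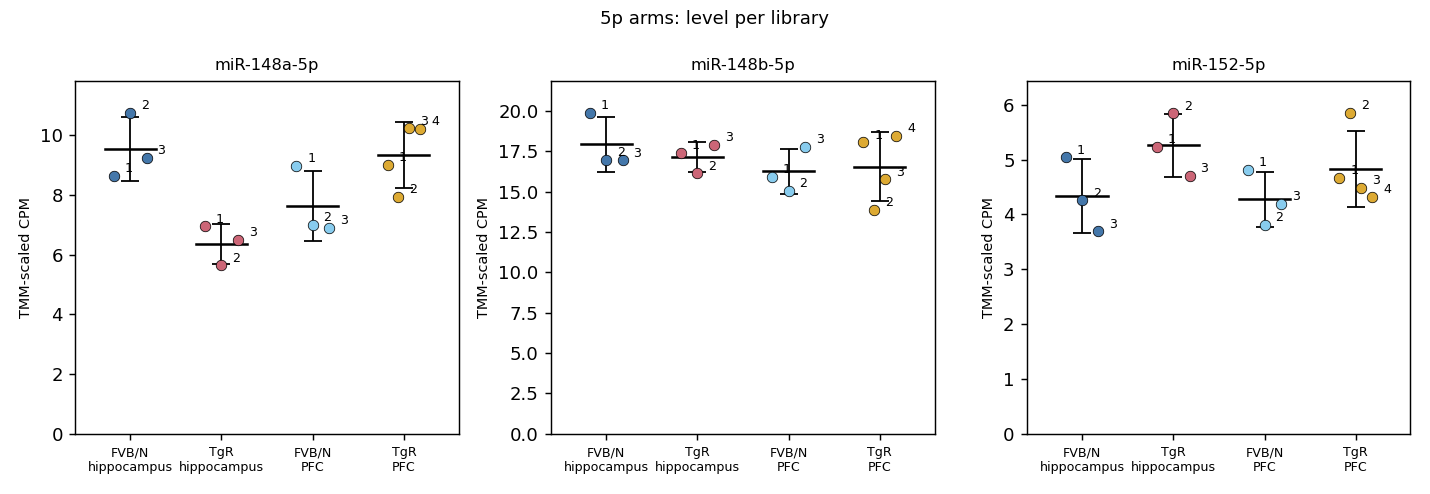
Level of each 5p strand (TMM-scaled CPM, linear axis from 0) in every library, drawn like the plot of the 3p strands. TgR hippocampi lie at 5.64 to 6.95 CPM for miR-148a-5p, below the FVB/N hippocampi at 8.64 to 10.7 CPM, while the groups overlap for miR-148b-5p and miR-152-5p.

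In the PFC, the family was tested between 4 TgR and 3 FVB/N mice, and 0 of its 6 members passed an adjusted p of 0.05 or an unadjusted p of 0.05 (quasi-likelihood F-test of edgeR, Benjamini-Hochberg adjustment over 730 pairs). DESeq2 called 0 of the 6 as well. Of all tested pairs, 0.137% passed the adjusted threshold. miR-148a-3p had 4675, 4643 and 5359 CPM in FVB/N replicates 1, 2 and 3 and 5351, 4458, 5774 and 5509 CPM in TgR replicates 1 to 4. The groups overlapped, and the lowest value belonged to TgR replicate 2, the library of the lowest depth. The log2 fold change was 0.080 (standard error 0.10, adjusted p = 1.00, edgeR), and its 95% interval, -0.16 to 0.32, corresponds to 0.897-fold to 1.25-fold.

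The remaining members were measured less precisely in the PFC. The interval reached from -0.20 to 0.72 for miR-148a-5p (log2 fold change 0.26, standard error 0.20), which had 6.90 to 8.98 CPM (FVB/N) and 7.94 to 10.2 CPM (TgR). For miR-148b-3p, at 295 to 348 CPM (FVB/N) and 315 to 384 CPM (TgR), the log2 fold change was 0.087 (interval -0.18 to 0.36). For miR-152-3p, at 49.0 to 80.5 CPM (FVB/N) and 64.3 to 83.4 CPM (TgR), it was 0.064 (interval -0.37 to 0.50), and it was -0.12 without FVB/N PFC replicate 2, the lowest library. miR-148b-5p and miR-152-5p had log2 fold changes of -0.0029 and 0.15. Each of these 5 members had an adjusted p of 1.00 (edgeR), and such a p does not show that the genotypes are alike. In 0 of the 6 members did the TgR and FVB/N libraries of the PFC not overlap, against 5.21% of all tested pairs.

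**Figure D3:**
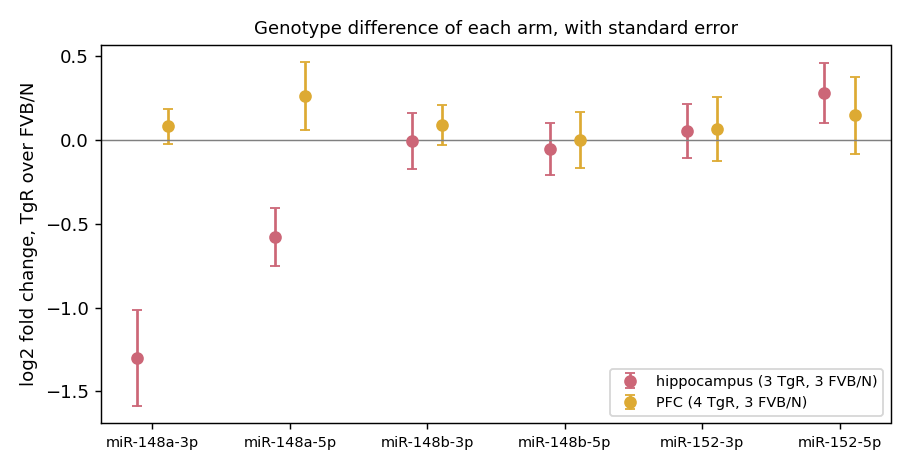
Fitted log2 fold change of TgR over FVB/N (points) with its standard error (bars) for the 6 members, in hippocampus (3 against 3 libraries) and PFC (4 against 3). In the hippocampus miR-148a-3p lies at -1.30 and miR-148a-5p at -0.58, whereas all PFC values lie between -0.0029 and 0.26.

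Across the 4 groups, the levels of miR-148a-3p were ordered FVB/N hippocampus (7248 ± 3419 CPM), TgR PFC (5273 ± 571 CPM, n = 4), FVB/N PFC (4892 ± 404 CPM, n = 3) and TgR hippocampus. The upper 3 groups overlapped with each other. The 3 TgR hippocampi lay below all the other 10 libraries, a pattern shown by 2.13% of the 751 pairs tested over all libraries and, within the family, by miR-148a-3p only. Within TgR mice, the hippocampus was below the PFC for miR-148a-3p by 0.86 on the log2 scale (-0.86, standard error 0.23) and for miR-148a-5p (-0.56, standard error 0.18), without overlap for both, as for 12.4% of all pairs. Within FVB/N mice, miR-148a-3p was higher in hippocampus than in PFC by 0.57 (standard error 0.24), but the libraries overlapped, and the difference was 0.11 (standard error 0.15) without FVB/N hippocampus replicate 3. In 0 of the 6 members did the FVB/N hippocampi all lie above the FVB/N PFCs, against 12.9% of all pairs. The hippocampal less the PFC effect of genotype was -1.43 for miR-148a-3p (standard error 0.33), -0.97 (standard error 0.20) without FVB/N hippocampus replicate 3, and -0.88 for miR-148a-5p (standard error 0.27). For the 4 other members it lay between -0.12 and 0.11.

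miR-148b-3p, which comes from the widely expressed coatomer gene Copz1, had a higher mean in hippocampus than in PFC in both genotypes, with overlapping libraries (log2 difference 0.26 in FVB/N and 0.14 in TgR mice, standard errors 0.15 and 0.14). miR-152-3p was nearly level over the groups, with means of 76.3 ± 5.13 and 78.8 ± 8.71 CPM in FVB/N and TgR hippocampi (SD, n = 3 each), and 67.1 ± 16.3 (SD, n = 3) and 71.6 ± 8.78 CPM (SD, n = 4) in their PFCs, all overlapping. The 5p strands of both hairpins had region differences between 0.016 and 0.14.

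Since the 3 guide strands share their seed, their sum gives the level of reads with this seed. In hippocampi it was 7711 ± 3351 CPM for FVB/N and 3372 ± 498 CPM for TgR mice (SD, n = 3 each). In PFCs it was 5282 ± 437 CPM for FVB/N (SD, n = 3) and 5694 ± 590 CPM for TgR mice (SD, n = 4). The TgR hippocampi, at 2803 to 3727 CPM, were below the FVB/N hippocampi, at 5765 to 11581 CPM. miR-148a-3p supplied 93.1% ± 3.12 of the sum in FVB/N hippocampi and 86.1% ± 1.57 in TgR hippocampi (SD, n = 3 each), and 92.6% in both PFC groups. The share of miR-148b-3p was correspondingly 5.80% in FVB/N hippocampi and 11.5% in TgR hippocampi, and that of miR-152-3p was 1.11% and 2.35%.

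The ratio of miR-148a-3p to miR-148b-3p within a library does not depend on the scaling between libraries. It was 12.96, 11.9 and 35.8 in FVB/N hippocampus replicates 1, 2 and 3 and 8.53, 6.44 and 7.65 in TgR hippocampus replicates 1, 2 and 3. In the PFC it lay between 14.2 and 15.9 in FVB/N and between 14.1 and 17.8 in TgR mice. The TgR hippocampi thus had the 3 lowest ratios of the 13 libraries, and FVB/N hippocampus replicate 3 had the highest.

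**Figure D4:**
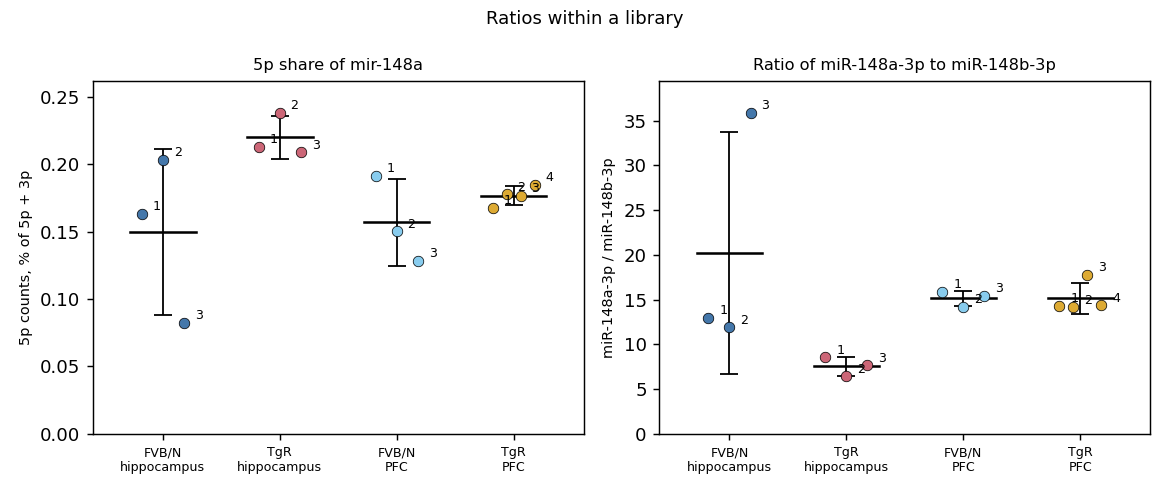
Left, 5p counts of mir-148a as a percentage of its 5p and 3p counts; right, miR-148a-3p divided by miR-148b-3p, for every library of the 4 groups (points numbered by replicate, lines means, bars SD). FVB/N hippocampus replicate 3 stands apart in both, at 0.0824% and 35.8, and the TgR hippocampi have the lowest ratios on the right, 6.44 to 8.53.

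Use of the strands differed between the hairpins. The 5p strand took 0.150% ± 0.0617 of the mir-148a counts in FVB/N hippocampi, 0.220% ± 0.0158 in TgR hippocampi and 0.157% ± 0.0321 in FVB/N PFC (SD, n = 3 each), and 0.177% ± 0.00699 in TgR PFC (SD, n = 4). For mir-148b the group means were 4.27% to 4.80%, and for mir-152 they were 5.38% to 6.40%. In FVB/N hippocampus replicate 3, 115 of 139547 mir-148a counts were 5p, 0.0824% (exact Clopper-Pearson 95% interval 0.0680% to 0.0989%, counting error only), against 0.163% (0.135% to 0.196%) and 0.203% (0.175% to 0.236%) in FVB/N replicates 1 and 2. The high miR-148a-3p of that library was therefore not accompanied by a high miR-148a-5p. Between the genotypes in the PFC, the 5p share differed by 0.0200 percentage points for mir-148a (exact two-sided permutation p = 0.29), by -0.29 for mir-148b (exact p = 0.23) and by 0.25 for mir-152 (exact p = 0.86). With 4 mice against 3 this test cannot give a p below 0.057.

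FVB/N hippocampus replicate 3 stood apart in few other miRNAs. Of 408 pairs with a mean of at least 10 CPM, 10 were at least 1.5-fold and 3 at least 2-fold above both other FVB/N hippocampi in it. These 3 were miR-10b-5p, miR-376a-3p and, at 2.12-fold, miR-148a-3p, of which miR-10b-5p and miR-376a-3p are named after their values were seen. In the other hippocampal libraries, between 0 and 14 pairs were at least 1.5-fold and between 0 and 1 at least 2-fold above both others of their group.

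The miRNAs whose deviations from the group means were most like those of miR-148a-3p included miR-145a-3p and miR-126a-3p, markers of blood vessels. Other miRNAs of the blood vessel list used below were not among the 5 highest. Pearson's r over the 13 libraries was 0.91 for miR-10b-5p, 0.84 each for miR-145a-3p, a miRNA of smooth muscle and pericytes, and for miR-126a-3p, the main miRNA of endothelium, and 0.82 each for miR-136-5p and miR-30b-3p. These 5 were picked as the highest of the 356 mature miRNAs compared. Over all 13 libraries these had a median of 0.098 and a 95th percentile of 0.640, which are not given for fewer libraries. miR-10b-5p was low in FVB/N hippocampi, with 16.3 CPM in replicate 3 and at most 3.48 CPM in replicates 1 and 2. The points share their libraries and depth, and without FVB/N hippocampus replicate 3, a choice made after seeing the data, the r was 0.70, 0.59, 0.58, 0.079 and 0.56, in the same order. With miR-148a-3p, miR-148b-3p had an r of -0.49, miR-152-3p of 0.17 and miR-148a-5p of 0.16. miR-148b-3p and miR-148b-5p had an r of 0.60 with each other.

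**Figure D5:**
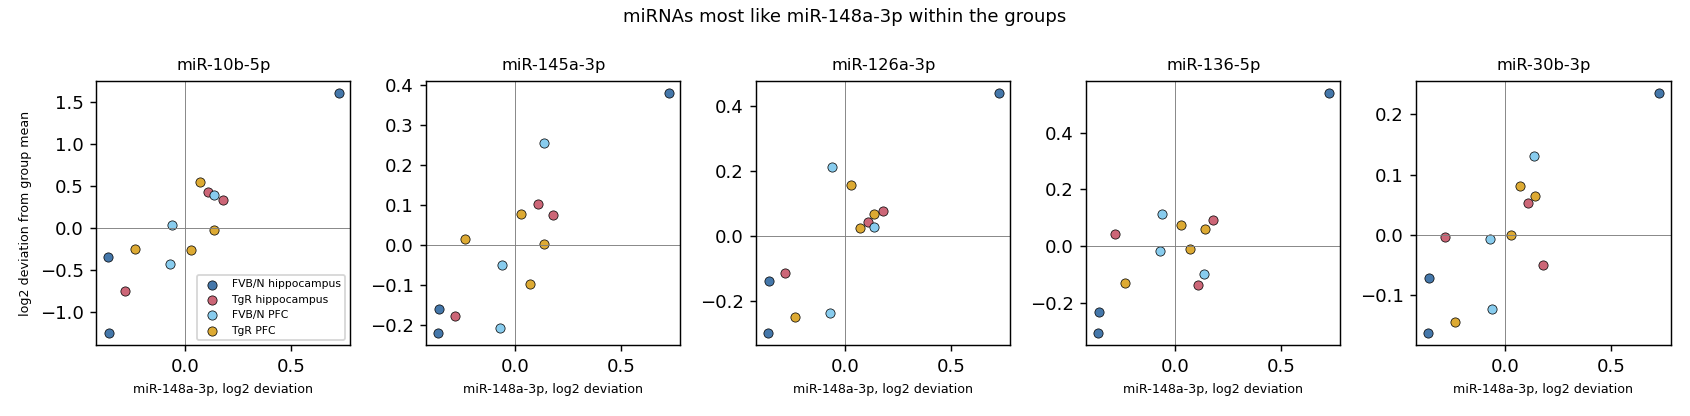
Deviation of 5 miRNAs from their group mean (vertical axis, log2 of CPM + 1) against that of miR-148a-3p (horizontal axis, same unit); each point is 1 of 13 libraries, coloured by group. The point at the upper right of every panel is FVB/N hippocampus replicate 3, without which r for miR-136-5p is 0.079.

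The miRNA markers of other cells had the following levels in the hippocampus. The 5 blood vessel miRNAs summed to 12597, 11681 and 18376 CPM in FVB/N hippocampus replicates 1, 2 and 3 and to 10700 to 12227 CPM in TgR hippocampi, so that the highest hippocampal library was again FVB/N replicate 3. In the PFC they summed to 13538 to 18926 CPM. The sum is mostly miR-126a-3p, and the members of the list differed in direction, with log2 fold changes in the hippocampus of -0.33 for miR-126a-3p and 0.24 for miR-145a-3p (median of the list -0.11), 1 of 5 being lower and 1 of 5 higher in TgR mice without overlap. Of 7 red blood cell miRNAs, 6 were lower in TgR hippocampi without overlap (13.5% of all tested pairs were lower and 10.5% higher in this way), with a sum of 1326 to 1491 CPM (FVB/N) against 591 to 836 CPM (TgR). These 7 are both strands of miR-144, miR-486a and miR-486b, and miR-451a, so they are not independent measures. Other lists also hold both strands of a hairpin. By the same count, 4 of 10 choroid plexus and ciliated cell miRNAs were higher, as were 2 of 4 tested oligodendrocyte, 1 of 4 white blood cell and 1 of 4 tested mesenchymal miRNAs. Of 3 neuroendocrine miRNAs 1 was lower and 1 higher, and of 7 neuronal miRNAs 0 were either. The 5 miRNAs of oligodendrocytes summed to 1434 to 1965 CPM (FVB/N) and 1831 to 2908 CPM (TgR), and the 10 of choroid plexus and ciliated cells to 1201 to 1261 CPM and 1525 to 4089 CPM. The 3 neuroendocrine miRNAs summed to 11988 to 17325 CPM and 8654 to 11452 CPM, the 7 neuronal ones to 190960 to 235535 CPM and 184283 to 215214 CPM, the 4 of white blood cells to 393 to 399 CPM and 415 to 450 CPM, and the 5 of mesenchyme and meninges to 158 to 218 CPM and 136 to 229 CPM. Of all these markers, only miR-219b-5p of oligodendrocytes was at 0 in some library. Their part in the lower miR-148a-3p was not tested.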

How the data were processed

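Small RNA of 13 mouse brain libraries was analysed, 3 TgR and 3 FVB/N hippocampi and 4 TgR and 3 FVB/N PFCs, grouped and numbered by their titles. After quality control in FastQC, the authors used miRExpress with its default settings for alignment to miRBase, and deposited raw counts per pair of hairpin and mature miRNA, 1 file per library. Unlisted pairs were set to 0. Where a mature miRNA arises from several hairpins, its reads recur at each and inflate the totals. FVB/N PFC replicate 1, for example, had 15177449 counts, and 9249617 with 1 row per mature miRNA. Each member here has a single hairpin, so its own counts are not repeated, but its CPM are lowered by the inflated totals. Ranks and shares over all pairs count such mature miRNAs more than once.

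Counts were fitted with edgeR 4.0.16 in R 4.3.3 (TMM, filterByExpr with a minimum of 10 counts, quasi-likelihood test, Benjamini-Hochberg adjustment over all tested pairs, threshold 0.05), each region by itself for genotype, and all 13 libraries in 4 groups for regions. Standard errors are the size of the log2 fold change over the square root of F. Printed CPM are TMM-scaled over the 13 libraries. The scripts were tested on simulated counts.

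Named were all members, the 5 mature miRNAs most like miR-148a-3p (Pearson's r of log2(CPM + 1) after subtraction of group means, mean of at least 10 CPM), marker lists, and the nearest hairpins. Members and lists were chosen with earlier results of these data known. Deviations from group means in libraries of the same number had r from -0.30 to 0.48. Both ends came from TgR against FVB/N PFCs, which are different mice. Between hippocampus and PFC, r for numbers 1, 2 and 3 was 0.17, 0.055 and 0.20 (FVB/N) and 0.15, 0.47 and -0.18 (TgR). These values do not settle whether both regions came from the same animals, and the numbers were not taken as pairs. Alternatives were DESeq2 1.42.0, its size factors, library size only, a mean of at least 300 normalized counts, no filter, 1 row per mature miRNA, all libraries in one fit, the replicate number as a block, and each library left out. Sequences and positions are from RefSeq and GENCODE M21 (GRCm38). Microarray, qPCR and behavioral data were not used here. One positional result is not reported here.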

Additional observations from a re-analysis of the deposited data

Results flagged for a closer look

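The 5p share of mir-148b in TgR PFC replicate 2 was 4.22%, apart from the other 3 TgR PFC libraries at 4.59% to 4.63%. Its exact 95% interval, 3.54% to 4.98%, holds their values, and this library has the lowest depth. Such a gap can arise by chance, and 9 values (the 6 members and the 3 shares) were examined in this group of 4.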

How the results depend on the processing

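The lower miR-148a-3p of TgR hippocampi kept its direction in 14 alternatives (log2 fold change -1.55 to -0.90, the weakest without FVB/N hippocampus replicate 3). With each library left out, the hippocampal less the PFC effect of miR-148a-3p lay between -1.64 and -0.97, and its FVB/N region difference between 0.11 and 0.79, both extremes nearest 0 being those without FVB/N hippocampus replicate 3. In the PFC, 1 pair of all tested pairs passed under each of 15 alternatives, and none of the members did (adjusted p 0.71 to 1.00, edgeR or DESeq2). Small PFC differences changed sign: miR-148b-5p was at 0.028 with all libraries in one fit and between -0.059 and 0.054 with each mouse left out, and miR-152-3p between -0.12 and 0.21. The number of pairs whose hippocampal groups did not overlap, 174, was 103 with a mean of at least 300 counts, where fewer pairs are tested, and 232 to 347 with each mouse left out, where fewer libraries can overlap. With the replicate number as a block, miR-148a-3p was at -1.23 in the hippocampus and 0.064 in the PFC, and no call changed. The 5p strands have no value with a mean of at least 300 counts. The region difference of miR-148b-3p in TgR mice was 0.27 with library size only and 0.28 with no filter, against 0.14. For miR-152-5p and the other low members, depth limits the precision.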
